A study of Homo sapiens with 18 samples.

Results

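The 6 arrays of NB4 cells treated with all-trans retinoic acid (ATRA) for 48 h did not lie equally far from the untreated arrays, and the transcripts that differed between the nearer and the farther ones are described here. The 6 arrays are part of a series of 18. NB4 is an established line of human acute promyelocytic leukemia. At 48 h, 3 arrays came from TG2 knockout cells and 3 from wild-type cells, all given 1 µM ATRA. The same lines were also profiled after 72 h with 1 µM ATRA and untreated, again with 3 biological replicates in each group, and every group shares the NB4 background. TG2 is transglutaminase 2, encoded by TGM2. The sample titles call the modified line a knockout and the sample codes carry the letters KD. The labels used here do not say how the line was made or whether it is a single clone.

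Members were chosen from the measured values. The first principal component (PC1) of all 33297 probe sets and 18 arrays held 57.1% of the variance and set ATRA arrays apart from untreated ones. On it the 6 untreated arrays scored between -89.9 and -84.7. TG2 knockout replicates 1 and 3 and wild-type replicate 1 scored 31.2, 31.1 and 17.5. These 3 of the 6 arrays are called near, for near the untreated arrays. TG2 knockout replicate 2 and wild-type replicates 2 and 3 scored 55.5, 51.7 and 56.6 and are called far. The highest near score was thus 31.2 and the lowest far score 51.7. Since every probe set of these arrays entered the choice, differences between near and far arrays are given as values and counts with no test. Values are log2 signals, and within each set they are given in the order just used.

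NB4 cells carry the PML-RARA fusion, a retinoic acid receptor that represses its targets until ATRA binds it. With ATRA the cells leave the cycle, lower their ribosome production and turn on genes of the maturing neutrophil, such as oxidase, adhesion and receptor genes. These were bulk RNA samples, in which fewer differentiated cells and a smaller change in each cell cannot be told apart.

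**Figure D1:**
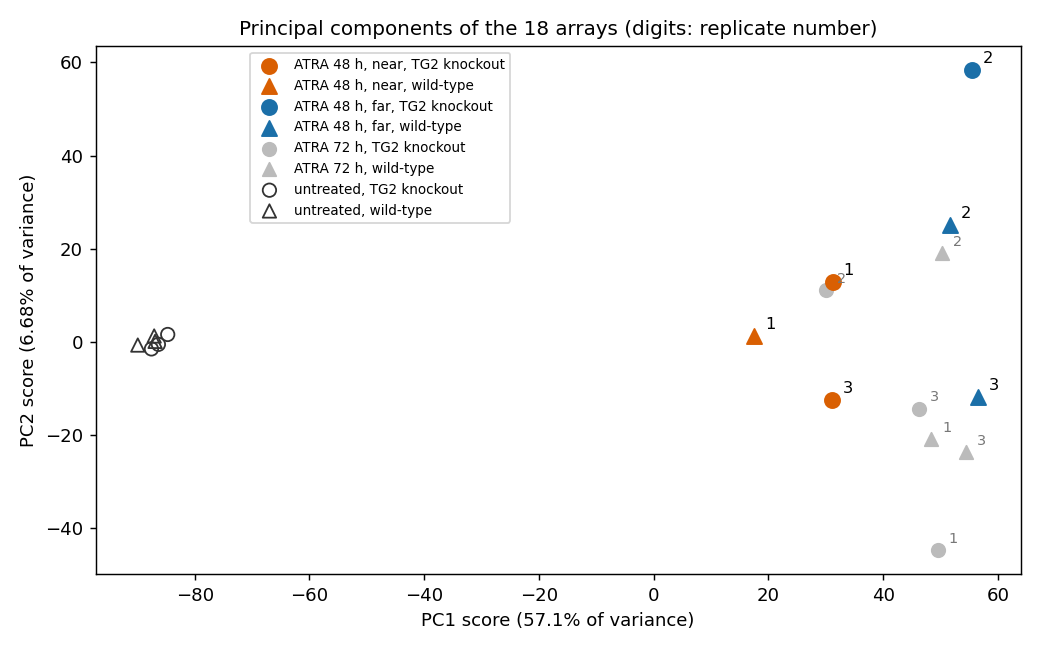
Scores of the 18 arrays on PC1 (x axis, 57.1% of the variance) and PC2 (y axis, 6.68%). Each point is an array, circles are TG2 knockout and triangles wild-type, and the digit is the replicate number. Near 48 h arrays scored 17.5 to 31.2 on PC1, far 48 h arrays 51.7 to 56.6, and the 72 h arrays 30.0 to 54.4.

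Both genotypes were found in both sets. By replicate number, both arrays numbered 1 were near, both numbered 2 were far, and those numbered 3 were split. PC1 averaged 39.3 ± 14.1 (SD, n = 3) in TG2 knockout arrays at 48 h and 41.9 ± 21.3 in wild-type arrays at 48 h. PC1 is the measure that chose the arrays, so the difference of -2.66 is a description only. Its sign turned with probe sets scaled to unit variance (4.80) and when any of 4 of the 6 arrays was left out. The same 3 arrays were nearest to the untreated ones under all 6 other ways of computing PC1. The second component followed another order. On it TG2 knockout replicate 2 stood apart from all other arrays with a score of 58.4.

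Transcripts of the promyelocyte were present in all arrays. MPO, the myeloperoxidase of primary granules, read 12.25 to 12.40 in near arrays, 12.11 to 12.18 in far arrays and 12.67 to 12.72 in untreated arrays. PRTN3, another primary granule protease, read 12.32 to 12.68 in near, 12.26 to 12.58 in far and 11.95 to 12.07 in untreated arrays. CD3E, a T cell gene, and HBB, a globin, stood at percentiles 36.1 and 40.8 of all probe sets in untreated cells. Other genes of these lineages were brighter. CD3D read 6.52 to 6.67 and KLF1 6.84 to 7.19 in untreated arrays, where the median over all probe sets was 6.15. Among the marker lists of monocytes, of eosinophils and mast cells, of red cells and platelets, and of lymphocytes, the array medians of near and far arrays overlapped in each. Single members did part the sets, such as CD3D, higher in near arrays, and KLF1, lower in them.

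How large the change was in each array was read on probe sets grouped by the change of the other genotype at 72 h, so that no 48 h array set its own classes. Yet the 72 h arrays also entered PC1, and the near arrays were chosen for lying closer to untreated arrays on it. Smaller median changes in near arrays therefore describe that choice and are no separate support for it. Among 3704 probe sets that were 0.5 to 1 log2 lower at 72 h in wild-type cells, the TG2 knockout 48 h arrays had median changes of -0.58 and -0.57 in near replicates 1 and 3. Far replicate 2 had -0.79, which is 109.8% of the wild-type change at 72 h, against 80.5% and 79.5% in the near replicates. For 3748 such probe sets chosen in the knockout, wild-type near replicate 1 reached 80.3%, against 109.9% and 108.5% in far replicates 2 and 3. The class of 0.5 to 1 log2 rises gave 81.4% and 75.5% in the knockout near arrays and 94.6% in the knockout far array. In wild-type arrays it gave 60.8% in the near array and 91.2% and 88.5% in the far arrays.

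The classes of large change were less apart in the knockout. Rises of at least 2 log2 reached 76.4% and 82.9% in its near arrays and 85.9% in its far array. In wild-type arrays they reached 83.5% in the near array, against 103% and 110.5% in the far arrays. In each class the near arrays of a genotype lay below its far arrays.

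**Figure D2:**
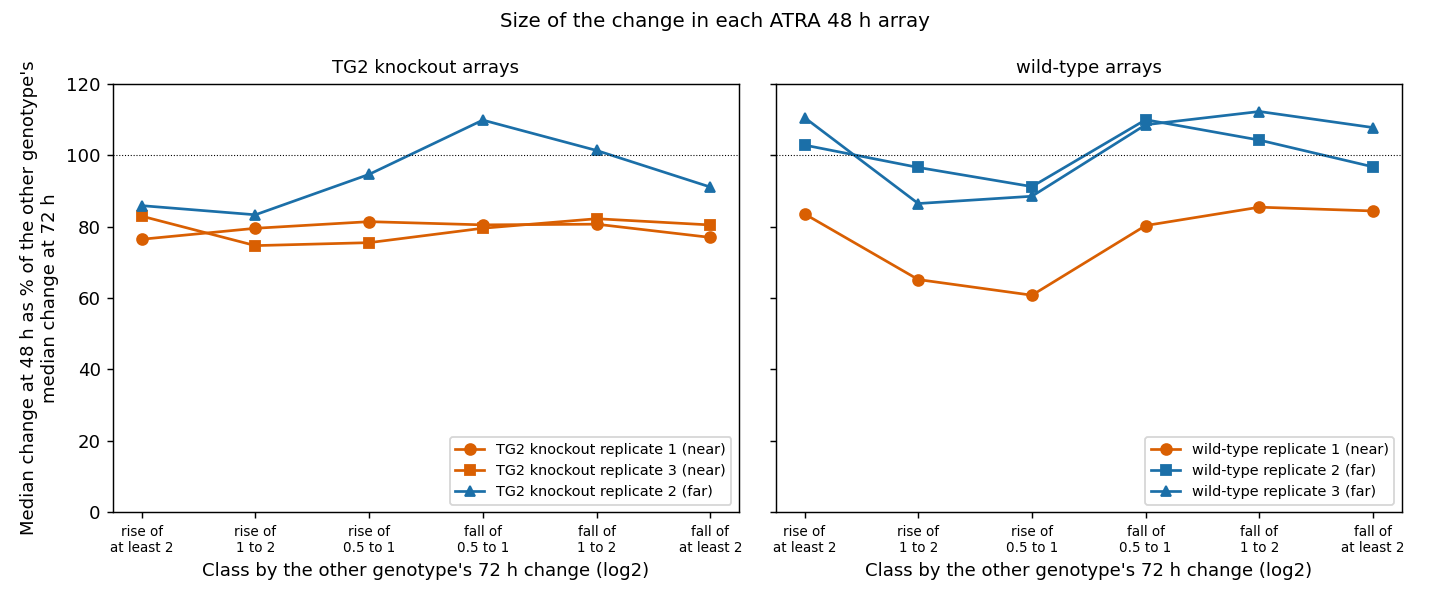
Median change of each 48 h array from its untreated group, as a percentage of the other genotype's median change at 72 h (y axis), for probe sets classed by that 72 h change in log2 units (x axis). TG2 knockout arrays are on the left and wild-type arrays on the right. Near arrays (orange) ran between 60.8% and 85.4%, and far arrays (blue) between 83.3% and 112%.

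The label of weaker and stronger response thus held for the median change of every class, as a description of arrays chosen on PC1. Gene by gene the near and far arrays overlapped in most probe sets, the strongest ATRA genes included, and the arrays are therefore called near and far. Of 30 probe sets at least 3 log2 higher with ATRA in both genotypes, the near arrays were closer to untreated than the far arrays, with no overlap, in 6 and farther in 0. Of 27 at least as much lower, the near arrays were closer in 3 and farther in 1. At a change of at least 2 log2 in both genotypes the near arrays were closer in 46 of 140 higher probe sets (32.9%) and farther in 2, and closer in 38 of 245 lower ones (15.5%) and farther in 7. Over probe sets changed by at least 1 log2 in both genotypes, near arrays were closer in 288 and farther in 22 of 1046 higher ones. Among 2126 lower ones they were closer in 545 and farther in 31. As background, near and far arrays did not overlap in 17.7% of all 33297 probe sets, with near above far in 8.79% and near below far in 8.96%.

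The median range over the 6 arrays at 48 h was 1.18 log2 for the 30 and 1.75 for the 27 strongest probe sets. The 8 genes described next were taken from these as the 4 higher and 4 lower ones with the smallest range, so that their evenness is the choice itself. PRAM1, an adaptor protein induced by retinoids in these cells, had 10.89, 10.91 and 11.15 in near arrays, against 10.97, 10.68 and 11.09 in far arrays. Untreated arrays read 7.62 to 7.97, so the spread of 0.47 among 48 h arrays was small beside the rise. The rise was 3.14 ± 0.13 (SE) log2 in knockout cells and 3.08 ± 0.13 in wild-type ones (limma, adjusted p = 1.59e-10 and 1.53e-10, 3 arrays a group). Over all probe sets limma called 41.4% between ATRA at 48 h and untreated cells for knockout and 38.9% for wild-type.

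ALOX5AP, which presents arachidonic acid to 5-lipoxygenase for leukotriene synthesis, read 11.35, 11.75 and 11.57 in near arrays and 11.11, 11.10 and 11.79 in far arrays. FGR, a Src family kinase of myeloid cells, read 10.25, 10.66 and 10.64 in near arrays, against 10.06, 10.51 and 11.05 in far arrays. In both genes the sets overlapped, and untreated arrays read 6.88 to 7.29 and 6.32 to 6.64. PSMB9, an immunoproteasome subunit, also overlapped, with a range of 0.93 log2 over the 6 arrays.

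Among the lower ones CYTL1, a small secreted protein, read 6.83, 6.49 and 6.35 in near arrays and 6.71, 6.57 and 6.32 in far arrays, against 11.46 to 11.69 untreated. EBF3, a transcription factor, read 7.20, 6.80 and 6.72 in near arrays and 6.69, 6.82 and 6.43 in far arrays. LHFPL6 overlapped too. LYZ, which encodes lysozyme, was the exception among these 8 genes, with 6.54, 6.14 and 6.46 in near arrays, 5.91, 6.11 and 5.71 in far arrays and a gap of 0.03 log2. The gap is the distance from the lowest array of one set to the highest of the other, near minus far, and it is 0 where the sets overlap.

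TGM2, the gene of TG2, followed genotype and not the PC1 order. It read 11.01, 11.29 and 12.34 in near arrays and 10.56, 12.06 and 12.40 in far arrays, against 6.27 to 6.61 untreated. All 3 knockout arrays lay below all 3 wild-type arrays, with a knockout minus wild-type difference of -1.31 ± 0.19 (SE, limma adjusted p = 0.0345). In the line labelled TG2 knockout ATRA raised the transcript by 4.56 ± 0.19 log2 (SE, limma adjusted p = 1.21e-10), to between 10.56 and 11.29, beside 5.84 ± 0.19 in wild-type cells (adjusted p = 8.54e-12). The transcript was therefore present in these cells, protein levels were not part of the data, and knockout is used here only as the name in the labels. The genotype call was made in 7 of 14 alternative fits and was lost without any single wild-type 48 h array and without TG2 knockout replicate 1 or 2.

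Over all probe sets at 48 h limma called 7 between the genotypes, 0.021% of those tested, and 1972 had an unadjusted p under 0.05. PADI4, which converts arginine to citrulline in histones, likewise kept its order by genotype in all 6 arrays, with 8.65, 8.44 and 9.38 in near arrays and 8.58, 9.27 and 9.43 in far arrays. MRPL49, IGF2BP2 and CA2 were called too and did not separate near from far arrays. Each of these 4 calls was lost when any single wild-type 48 h array was left out. The 4 genes already differed in the same direction between the untreated lines. Untreated knockout and wild-type means were 6.23 and 6.66 for PADI4, and 9.38 and 9.86 for MRPL49. They were 8.18 and 7.20 for IGF2BP2, and 8.91 and 8.21 for CA2. The untreated difference was not tested. The sets contain unequal numbers of knockout arrays, 2 of 3 near and 1 of 3 far.

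Genes that did part the sets were few once a margin was asked. A gap of at least 0.5 log2 was found in 218 probe sets, with near above far in 113 (0.339% of all) and near below far in 105 (0.315%). Only 25 of the 19460 probe sets of a single gene were among them (0.128%), 14 with near above far and 11 with near below far. Of the 113 and 105 probe sets, 87 and 89 had no gene annotation. In 97 of the 218 (44.5%) both sets lay beyond all untreated arrays on the same side with the near arrays in between. In another 82 (37.6%) the far arrays lay wholly beyond the untreated range and the near arrays overlapped it. In 4 both sets lay beyond the untreated arrays with the near arrays farther out. In 14 (6.42%) the near arrays lay wholly beyond the untreated range and the far arrays overlapped it. In 12 the sets lay on opposite sides of that range, and in 9 both overlapped it.

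SNRPA1, which encodes a core protein of the U2 small nuclear ribonucleoprotein of the spliceosome, had the widest gap among named genes. It read 7.89, 7.85 and 8.04 in near arrays and 6.20, 6.95 and 6.41 in far arrays, a gap of 0.90 log2. Untreated arrays read 6.96 to 7.24. The near arrays were thus above and the far arrays below the untreated range, and the group means showed no called ATRA change (0.21 ± 0.38 and 0.06 ± 0.38 log2 in knockout and wild-type cells, SE, limma adjusted p = 0.682 and 0.916).

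HEATR1, a factor for ribosomal RNA transcription and processing, read 9.34, 9.27 and 9.19 in near arrays and 8.30, 8.52 and 8.44 in far arrays. With 10.15 to 10.20 in untreated arrays, both sets had fallen and the near arrays by less. ATRA changed it by -1.20 ± 0.22 (SE) log2 in knockout cells and -1.45 ± 0.22 in wild-type ones (limma adjusted p = 0.000496 and 9.23e-05).

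MYSM1, a histone H2A deubiquitinase, had the same order. It read 8.15, 8.22 and 8.41 in near arrays, 7.38, 7.54 and 7.57 in far arrays and 8.89 to 9.11 in untreated arrays. Of the 2511 probe sets of a single gene with an ordinary symbol (no clone, open reading frame or small RNA names) and a range of at least 1 log2 over the 6 arrays, it had the lowest correlation with PC1 (r = -0.98 over 6 arrays, a description of the values that set PC1). NAA25, the auxiliary subunit of the N-terminal acetyltransferase NatB, read 8.44, 8.44 and 8.48 in near arrays and 7.77, 7.91 and 7.26 in far arrays, against 9.67 to 9.79 untreated. B4GALT6, a galactosyltransferase of glycolipid synthesis, read 6.33, 6.25 and 6.44 in near arrays and 5.72, 5.54 and 5.73 in far arrays, against 7.45 to 7.69 untreated. For these 3 genes the near arrays stood between untreated and far arrays without touching either.

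IMPACT, an inhibitor of the translation kinase GCN2, and ANKRD50, an endosome recycling protein, behaved likewise, with gaps of 0.57 and 0.54 log2. WDR35, which serves transport in cilia, had a gap of 0.51. PCID2, linked to messenger RNA export, had one of 0.49 and an r with PC1 of -0.95.

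In others the near arrays stayed at or close to the untreated level. PRKDC, the catalytic subunit of the DNA-dependent protein kinase, read 10.31, 10.40 and 10.30 in near arrays and 9.67, 9.77 and 9.67 in far arrays, against 10.43 to 10.52 untreated. FIGNL1, an ATPase of recombination repair, read 8.04, 8.07 and 8.01 in near arrays, 7.45, 7.44 and 7.20 in far arrays and 7.91 to 8.09 in untreated arrays. MRPS22, of the mitochondrial ribosome, read 7.56, 7.59 and 7.57 in near arrays and 6.96, 6.97 and 7.05 in far arrays, against 7.45 to 7.71 untreated. The near arrays of FIGNL1 and MRPS22 overlapped the untreated arrays and those of PRKDC lay just below them. ZNF808, a zinc finger gene, had a gap of 0.66.

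Where the near arrays were lower, the genes were mostly dim. LILRA3, a secreted leukocyte receptor, read 5.31, 5.63 and 5.47 in near arrays, 6.49, 6.22 and 6.62 in far arrays and 5.42 to 5.82 in untreated arrays. All 3 far arrays lay above the untreated range, and the near arrays overlapped it, with TG2 knockout replicate 1 below its lower end. CCL8, a monocyte chemokine, read 3.94, 4.10 and 3.97 in near arrays and 4.85, 4.63 and 4.97 in far arrays, against 4.41 to 4.88 untreated, so its near arrays lay below the untreated ones. SLC17A6, a vesicular glutamate transporter of neurons, was also lowest in near arrays, with 3.55, 3.72 and 3.70, against 4.26, 4.83 and 4.40 in far arrays and 3.83 to 4.16 untreated.

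REG3A, a secreted lectin of gut and pancreas, read 3.12, 2.90 and 2.84 in near arrays and 3.62, 3.66 and 3.80 in far arrays. DPPA3, a germ cell gene, read 4.18, 4.21 and 4.19 in near arrays, against 4.76, 4.67 and 4.68 in far arrays. Of the separated probe sets with near below far, the median untreated level was 3.45, where it was 6.15 over all probe sets, and whether signals this low reflect the named transcript was not tested. Among those with a range of at least 1 log2 over the 6 arrays, the 8 genes of highest correlation with PC1 were NFYCP2, CLEC12A-AS1, OR5H6, LMOD3, STEAP1, ZNF214, CST13P and PDGFD, with r between 0.95 and 0.97. REG3A, with a range of 0.96, had an r of 0.97. LINC01356 had the widest gap in this direction, -0.76 log2.

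**Figure D3:**
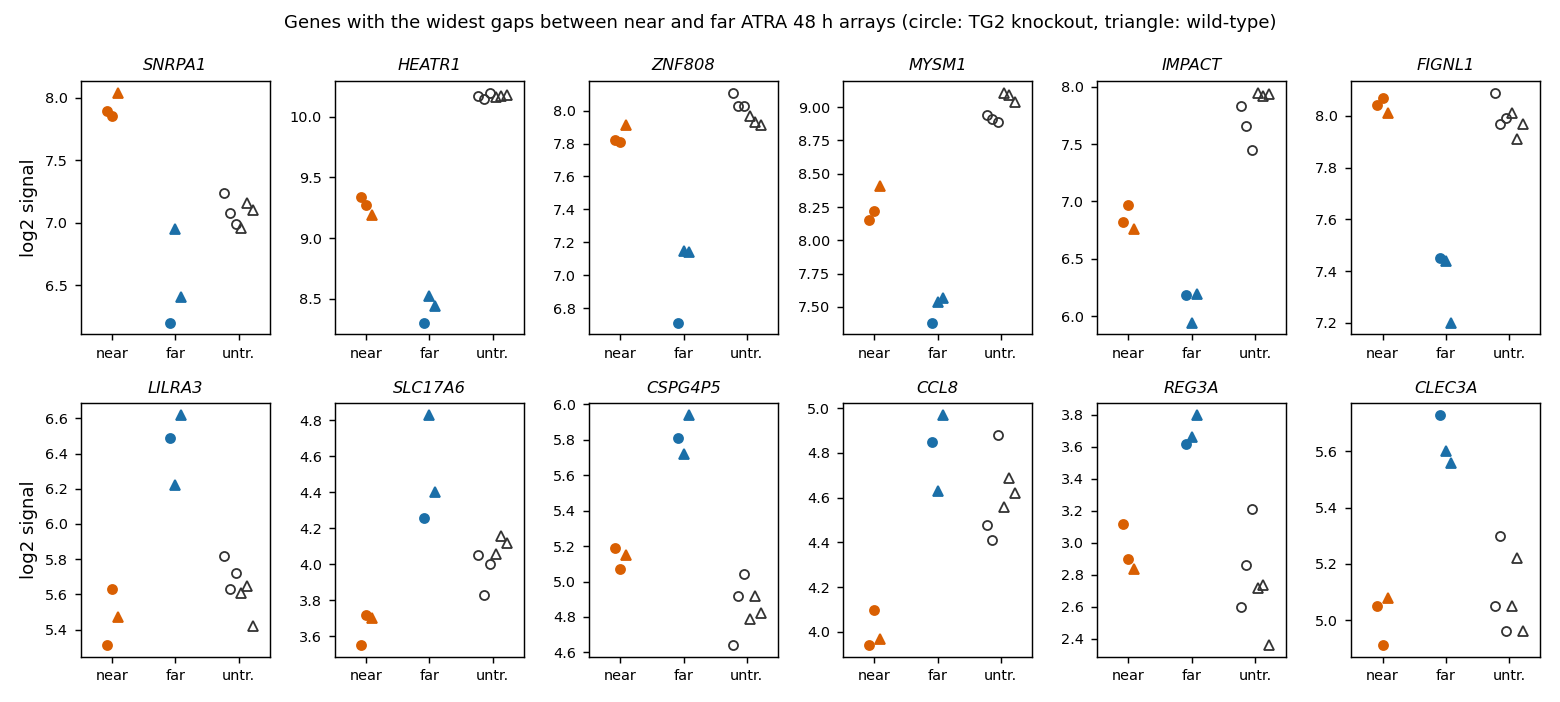
Log2 signal (y axis) of the 6 genes with the widest gaps in each direction, long non-coding RNAs left out, in near 48 h arrays, far 48 h arrays and untreated arrays (x axis, left to right), with 1 point per array. Circles are TG2 knockout and triangles wild-type. In the upper row near arrays lay above far arrays, by gaps of 0.56 to 0.90 log2, and in the lower row below them.

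Promoters are printed for the 2 protein-coding genes of widest gap in each direction that had an entry among the RefSeq promoters of build GRCh38.p14, from 250 bases before to 50 after the gene's start. They let a reader set the genes that moved together side by side. The promoters of SNRPA1 (chr15:101295199-101295498, minus strand) and HEATR1 (chr1:236604467-236604766, minus strand) belong to genes with near above far. Those of SLC17A6 (chr11:22338131-22338430, plus strand) and CCL8 (chr17:34319185-34319484, plus strand) belong to genes with near below far. Capitals mark exact matches, on either strand, to CCAAT (the CCAAT box), to TTTGAA (the cell cycle homology element) or to TATAAA (the TATA box).
SNRPA1: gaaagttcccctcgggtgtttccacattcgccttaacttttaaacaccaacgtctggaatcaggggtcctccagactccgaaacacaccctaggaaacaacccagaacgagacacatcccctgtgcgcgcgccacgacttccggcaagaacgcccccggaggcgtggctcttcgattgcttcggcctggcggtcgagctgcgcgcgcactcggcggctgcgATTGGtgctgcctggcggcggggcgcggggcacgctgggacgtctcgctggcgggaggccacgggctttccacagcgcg
HEATR1: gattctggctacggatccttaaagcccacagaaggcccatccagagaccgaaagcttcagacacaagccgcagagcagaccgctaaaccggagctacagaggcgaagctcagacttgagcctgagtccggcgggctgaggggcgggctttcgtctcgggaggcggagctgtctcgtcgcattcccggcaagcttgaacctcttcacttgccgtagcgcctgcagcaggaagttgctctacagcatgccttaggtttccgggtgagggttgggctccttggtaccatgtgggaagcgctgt
SLC17A6: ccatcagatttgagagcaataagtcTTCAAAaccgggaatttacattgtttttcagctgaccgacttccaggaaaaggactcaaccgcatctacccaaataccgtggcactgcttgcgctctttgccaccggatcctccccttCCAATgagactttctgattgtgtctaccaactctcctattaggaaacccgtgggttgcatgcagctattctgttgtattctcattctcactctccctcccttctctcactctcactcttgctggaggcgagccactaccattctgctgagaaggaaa
CCL8: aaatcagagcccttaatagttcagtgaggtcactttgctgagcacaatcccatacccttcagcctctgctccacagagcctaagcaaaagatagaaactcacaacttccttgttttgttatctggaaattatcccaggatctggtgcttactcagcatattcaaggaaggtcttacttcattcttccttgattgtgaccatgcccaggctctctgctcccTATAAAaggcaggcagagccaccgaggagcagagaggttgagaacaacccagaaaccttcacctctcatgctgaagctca

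SNRPA1 held 1 CCAAT match, SLC17A6 held 1 CCAAT and 1 TTTGAA match, CCL8 held 1 TATAAA match, and HEATR1 held none of these. No 2 of the matches overlapped. Of 35116 RefSeq promoters of the same length, 34.6% held CCAAT, 15.2% TTTGAA and 11.5% TATAAA. Also searched was the interferon-stimulated response element, present in 3.57% of all promoters. For the retinoic acid response element, 2 exact patterns of identical repeats 5 bases apart were searched, present in 0.0057% and 0.0114%. Patterns with unlike repeats were not searched. None of these was found in the 4 promoters, and the same held for all promoters at hand, 6 of the 12 named genes with near above far and 8 of the 12 with near below far. The 2 retinoic acid patterns are so rare that their absence from so few promoters says nothing about such elements.

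Genes of ribosome production were the listed group in which near and far arrays parted most often. Without a margin, 9.56% of the probe sets of a single gene had near above far and 7.58% near below far. In the MYC and ribosome biogenesis list 9 of 23 measured members had near above far and 0 near below far, with gaps of 0.02 to 0.48 log2. The count was 7 under quantile normalization and 12 with arrays centred on their medians. The list was bright, with a median untreated level of 9.71, and in the 2 brightest deciles of all probe sets near lay above far in 19.9% and 26.2%. Its median changes were -0.53, -0.62 and -0.65 in near arrays and -0.70, -0.81 and -1.09 in far arrays, though these ranges overlapped under quantile normalization.

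The members below were picked after their values were seen. PNO1, needed to mature the small ribosomal subunit, read 8.36, 8.28 and 8.23 in near arrays and 7.61, 7.75 and 7.66 in far arrays, against 8.93 to 9.11 untreated. POLR1B, a core subunit of RNA polymerase I, read 8.34, 8.27 and 8.17 in near arrays and 7.68, 7.90 and 7.59 in far arrays, against 9.66 to 9.75 untreated. In both, the near arrays stood between untreated and far ones. NOP58, a core protein of box C/D small nucleolar ribonucleoproteins, read 10.39, 10.58 and 10.46 in near arrays, inside or just beside the untreated range of 10.40 to 10.54, and 9.94, 10.05 and 9.86 in far arrays. Of the 9 members 6, or all but NOP58, DKC1 and NPM1, were below the untreated range in all 6 arrays.

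Cell cycle genes leaned the same way with smaller gaps. Near lay above far in 7 of 32 DNA replication genes and in 6 of 29 mitosis genes, and near lay below far in 0 of either. Both shares are close to those of the brightest deciles, and quantile normalization lowered the counts to 4 and 3. CHEK1, a checkpoint kinase, read 10.03, 10.06 and 10.00 in near arrays and 9.57, 9.67 and 9.74 in far arrays, against 10.26 to 10.33 untreated. ASPM, a spindle pole protein, read 8.06, 7.69 and 8.15 in near arrays and 7.11, 7.46 and 7.28 in far arrays, against 8.67 to 8.75 untreated. ASPM fell in both genotypes, with a change of -1.09 ± 0.23 log2 in each (SE, limma adjusted p = 0.0016 for knockout and 0.00162 for wild-type cells). GINS2, of the replicative helicase, changed by -2.09 ± 0.26 in knockout cells and -2.23 ± 0.26 in wild-type ones, and its sets overlapped.

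Respiratory chain genes had near above far in 4 of 18 (22.2%), all with gaps of at most 0.17 log2. Their median untreated level was 10.44, where the brightest deciles held 19.9% and 26.2%, so the share is close to that of other probe sets this bright. UQCRC2, a core protein of complex III, read 10.83, 10.82 and 10.89 in near arrays and 10.12, 10.60 and 10.65 in far arrays. ATP5F1B, the catalytic chain of ATP synthase, read 12.44 in each near array and 12.07, 12.31 and 12.35 in far arrays. NDUFS1 and NDUFV1, of complex I, made up the rest. The count was 1 under quantile normalization.

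Genes of neutrophil function did not share this order. Among 22 retinoid targets near and far arrays parted in 1, CD38, and list medians were 1.33, 1.42 and 1.57 in near arrays and 1.06, 1.34 and 1.78 in far arrays. CD38 read 10.69, 10.86 and 10.81 in near arrays and 9.96, 10.46 and 10.67 in far arrays. Untreated arrays read 8.55 to 9.08, so its rise was the larger in near arrays, by a gap of 0.02 log2. Under quantile normalization the list had 0 members with near above far and 1 with near below far, so that gap was not kept. The sets parted in none of the 6 NADPH oxidase genes, 9 genes of leukotriene and prostanoid synthesis and 12 genes of class I presentation and the immunoproteasome. They parted in 2 of 14 azurophil granule genes, MPO and LYZ, both lower in far arrays. Of 17 specific and gelatinase granule genes they parted in 3, with MMP9 and PGLYRP1 higher in far arrays and CRISP3 lower. MMP9 read 6.33, 6.47 and 6.19 in near arrays and 6.96, 6.69 and 7.56 in far arrays. Untreated arrays read 9.72 to 10.05, so MMP9 had fallen and the near arrays were the farther from untreated. CRISP3 read 4.10 to 4.63 untreated, so its rise was the larger in near arrays. PGLYRP1 read 6.03 to 6.31 untreated, so its rise was the larger in far arrays. In neutrophil receptors 1 of 24 had near above far and 1 near below far. Against the percentages above for all gene probe sets, these are low or ordinary counts.

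Of 32 chemokines and cytokines, with a median untreated level of 5.95, 5 had near below far and IL6 alone near above far. In the fifth and sixth deciles of level near lay below far in 12.2% and 12.3% of all probe sets, so this count is close to the background. Beside CCL8 these were TNF, IL10, LTB and CCL2. TNF, the inflammatory cytokine, read 7.07, 6.94 and 6.72 in near arrays and 7.35, 7.25 and 7.70 in far arrays, against 9.02 to 9.30 untreated, so here the near arrays were farther from untreated than the far ones. IL10 read 4.73, 4.97 and 4.86 in near arrays and 5.15, 5.29 and 5.26 in far arrays, against 4.46 to 4.72 untreated.

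Among 37 interferon response genes, with a median level of 6.11 in the same deciles, 3 (8.11%) had near below far and 0 near above far. Over all single-gene probe sets near lay below far in 7.58%. The count was 2 under quantile normalization and 1 with arrays centred on their medians. IFI27 had the widest gap of these, with 6.28, 6.30 and 6.26 in near arrays and 6.62, 6.94 and 7.02 in far arrays, against 5.52 to 6.09 untreated. ISG15 and OAS2 were the others. OAS1, which makes the activator of RNase L, overlapped, with 7.41, 7.80 and 7.75 in near arrays and 7.03, 8.17 and 9.46 in far arrays.

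Across all 31 lists, with 526 measured genes, CCL8 was the 1 gene with a gap of at least 0.5 log2. The array medians of near and far arrays overlapped in 27 lists. They did not in MYC and ribosome biogenesis, cell cycle inhibitors and respiratory chain, with near above far, where all 3 overlapped under quantile normalization. Near lay below far in myeloid transcription factors, where the medians overlapped with arrays centred on their medians.

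**Figure D4:**
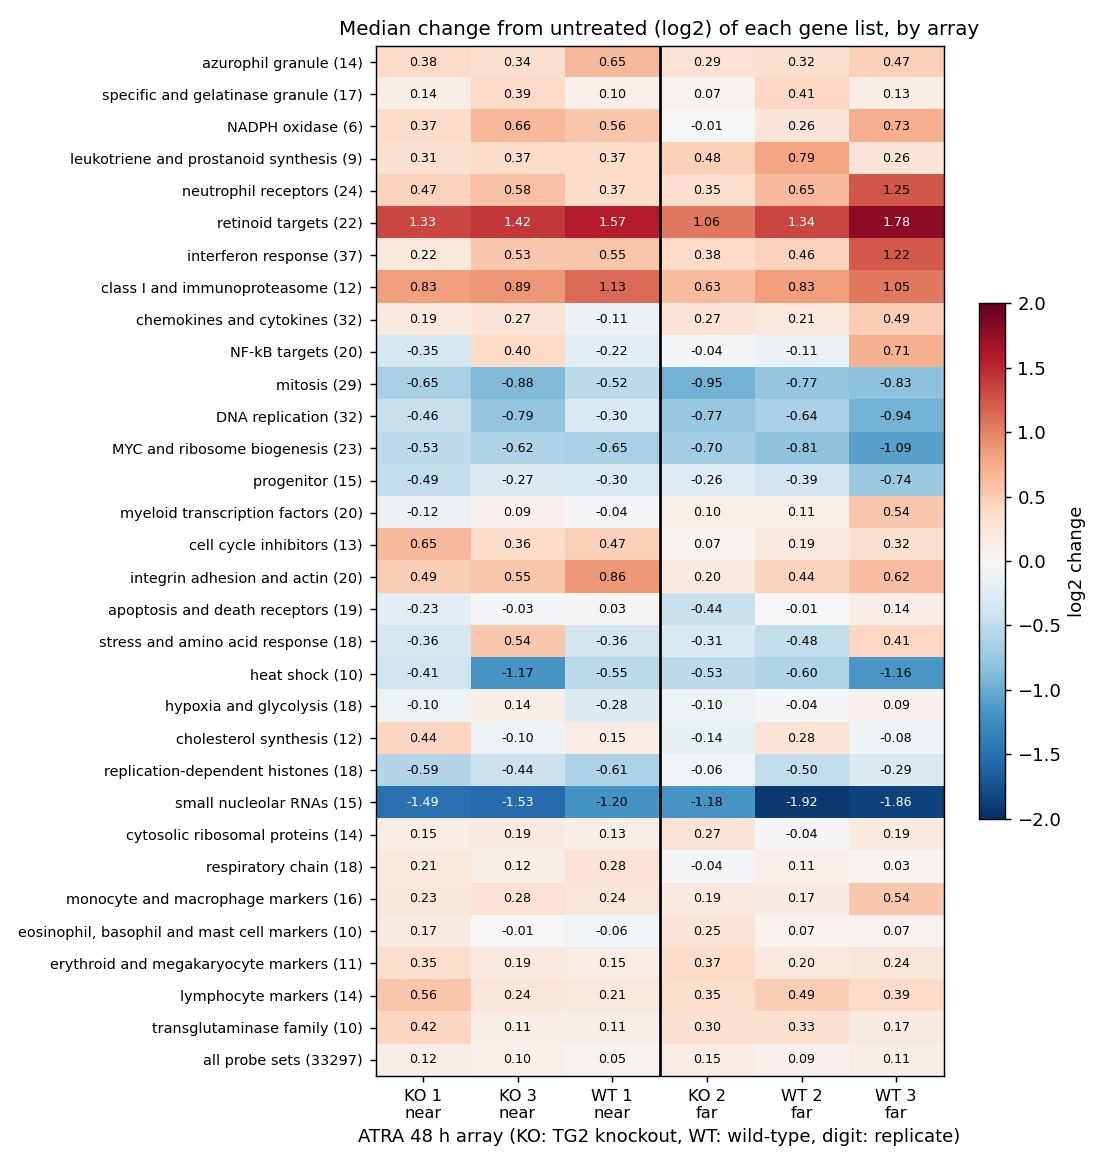
Median log2 change from untreated of the measured members of each gene list (rows, number of members in brackets) in each 48 h array (columns), with near arrays left of the line and far arrays right of it. Colours run from blue for lower to red for higher than untreated. Retinoid targets were red in all 6 arrays, with medians of 1.06 to 1.78.

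What near and far arrays most clearly shared across genes was a dependence on level. Where the arrays did not overlap, the median untreated level was 8.76 for near above far and 5.54 for near below far. Over the brightest 10 percent of probe sets near lay above far in 26.2% and below it in 2.67%. Over the dimmest 10 percent near lay above far in 2.40% and below it in 11.7%.

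In the ninth decile the median change from untreated was -0.35, -0.34 and -0.27 in near arrays and -0.60, -0.49 and -0.44 in far arrays. In the dimmest decile it was 0.63, 0.48 and 0.40 in near arrays and 0.64, 0.78 and 0.58 in far arrays, which overlap. ATRA arrays thus had bright probe sets lower and dim ones higher than untreated arrays, and the far arrays more so at the bright end. The SD of all values within an array was 2.20 to 2.28 in near, 2.15 to 2.22 in far and 2.39 to 2.40 in untreated arrays. The part of RNA quality and of normalization in this was not tested. Centring arrays on their medians moved the share of near above far among non-overlapping probe sets to 60.5%, beside 49.5% as deposited. For gaps of at least 0.5 log2 the shares were 62.7% centred and 51.8% as deposited. Under quantile normalization the share was 46.1% among non-overlapping probe sets and 55.8% for gaps of at least 0.5 log2.

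**Figure D5:**
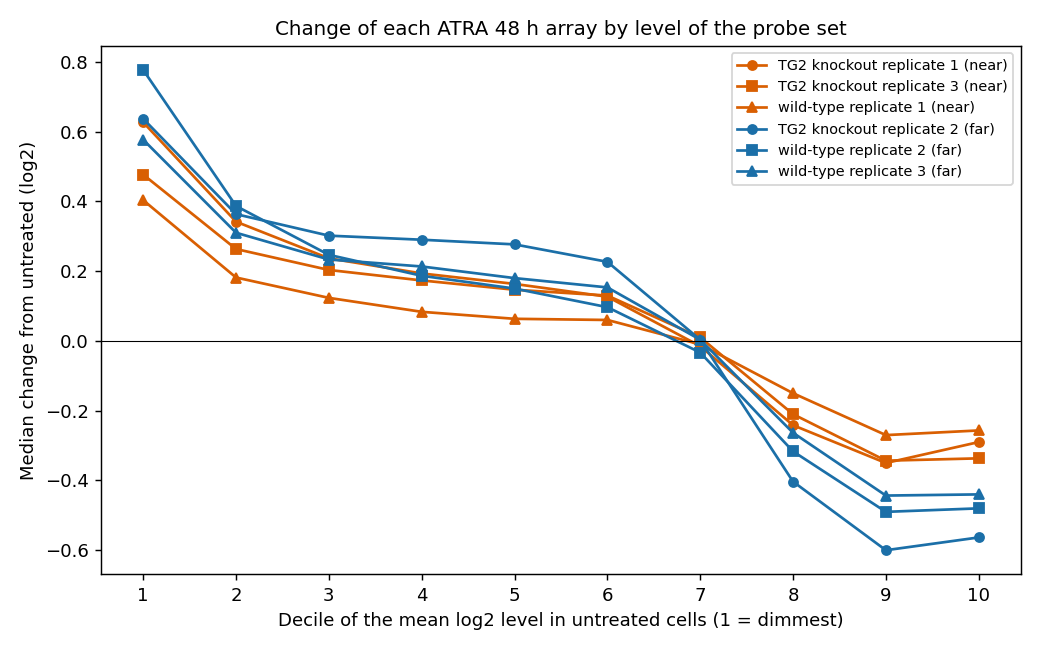
Median log2 change from untreated (y axis) by decile of the mean untreated level (x axis, 1 is dimmest) for each 48 h array. Near arrays are orange and far arrays blue. In the ninth decile near arrays changed by -0.35 to -0.27 and far arrays by -0.60 to -0.44.

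Where arrays differed most, another order prevailed. Of 114 gene probe sets with a range of at least 2 log2 over the 6 arrays, near and far arrays did not overlap in 13 (11.4%), against 17.1% of all gene probe sets. In 56 of them (49.1%) replicate 3 of both genotypes held the highest pair of values, which was so in 9.98% of all gene probe sets. TG2 knockout replicate 3 is a near array and wild-type replicate 3 a far one. Both arrays numbered 1 are near and both numbered 2 are far. For these the order on PC1 and the replicate number cannot be told apart.

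ASNS, which makes asparagine, was such a gene, with 7.65, 10.08 and 7.62 in near arrays and 7.41, 7.12 and 9.65 in far arrays. ICAM1, an adhesion molecule, read 9.69, 11.72 and 10.55 in near arrays and 10.26, 11.12 and 12.28 in far arrays. VIM, the filament protein vimentin, read 6.07, 8.03 and 6.14 in near arrays and 6.73, 6.68 and 8.65 in far arrays, against 10.78 to 10.99 untreated. In all 3 genes both replicates numbered 3 read highest. Within a genotype, the near minus far differences of the knockout and of wild-type cells correlated with r between 0.10 and 0.23 across the 33297 probe sets, which share arrays and are not independent. Near and far were set on PC1 in both genotypes, so a positive r is in part the choice itself.

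At 72 h TG2 knockout replicate 2 lay nearest the untreated arrays on PC1, at 30.0. It entered PC1 too, so this is again a description. Of the 14 gene probe sets with near above far by at least 0.5 log2, this array was the highest of the 6 arrays at 72 h in 10. Among all 113 such probe sets it was the highest in 29, against 37 for TG2 knockout replicate 1. Among the 11 gene probe sets with near below far by that margin it was the lowest in 4, against 5 for wild-type replicate 2. It was the highest in 1258 of the 2928 probe sets with near above far and no overlap (43.0%), and the lowest in 751 of the 2982 with near below far (25.2%). How often it was highest or lowest over all probe sets was not computed, so these counts have no background. In the brightest decile its median change was -0.27, against -0.47 to -0.39 in the other 72 h arrays. Of the 2928 probe sets 82.8% lay above the median untreated level. For the 113 separated probe sets with near above far its median change from untreated was -0.67. TG2 knockout replicates 1 and 3 had -0.47 and -0.79 there, and wild-type arrays at 72 h had -0.94, -1.24 and -0.87, so on these it was not the nearest to untreated.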

How the data were processed

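The submitters deposited 1 table of log2 values, 1 per probe set and array, for 18 Affymetrix whole-transcript gene arrays. That the scale is log2 was read from the deposited values, which run from 0.73 to 13.56 with 2 decimals. Background correction, normalization and probe summary are not given in the labels or headers used here, and nothing was normalized further. Array medians lie between 6.12 and 6.26. The number of arrays limits the precision, and no detection call was used. Of 33297 probe sets, 19460 have 1 gene, 1754 several and 12083 none, and 974 share all their values with another.

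Principal components were computed on centred, unscaled probe sets. ATRA and genotype contrasts were tested with limma 3.58.1 in R 4.3.3, with 1 mean per group over all 18 arrays, eBayes with trend, 2-sided tests and Benjamini-Hochberg adjusted p over all probe sets, called under 0.05. Recovery was tested on simulated data. Members, gene lists and the rule for named genes were chosen with earlier results of these data known. The rule took the 12 widest gaps in each direction, the 4 higher and 4 lower genes of at least 3 log2 with the smallest range, TGM2, up to 4 members of each list, called genotype genes and the 8 highest and 4 lowest correlations with PC1 among genes with a range of at least 1 log2. Replicate numbers were not taken to pair arrays. At 48 h the deviations of same-numbered knockout and wild-type arrays correlated with r of 0.196, 0.194 and 0.089 for replicates 1, 2 and 3. The highest r of unlike numbers was -0.039, 0.052 and 0.094, so replicates 1 and 2 were more alike by number. Replicate 3 was not by this measure. Yet among gene probe sets with a range of at least 2 log2, both arrays numbered 3 read highest in 49.1%. Over all gene probe sets that share was 9.98%. Alternatives were quantile normalization, median centring, fewer probe sets, other eBayes settings, a replicate block, the compared groups alone and leaving out each array.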

Additional observations from a re-analysis of the deposited data

How the results depend on the processing

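The 3 near arrays were the same under all 6 alternatives to PC1, and the gaps of the 41 named probe sets kept their sign in all 389 alternative values. Only quantile normalization and median centring could have turned a sign. Leaving out an array or probe sets cannot reverse a gap, so those values say nothing on this. CD38 was not among the 41, and its gap was not kept under quantile normalization. The knockout minus wild-type difference on PC1 turned to 4.80 with probe sets scaled to unit variance. Leaving out 1 array moved it between -14.9 and 4.68, positive without TG2 knockout replicate 1 (1.38) or 3 (1.41) or without wild-type replicate 2 (2.21) or 3 (4.68). Probe sets with a gap of at least 0.5 log2 numbered 218 as deposited, 25 for single genes, 83 for brighter probe sets, 5910 for any gap, 22 for a gap of at least 1, 1077 for a gap of at least 0.25 (chosen after seeing the data), and 372 to 743 without 1 of the 6 arrays, where fewer values must part. ATRA calls were 13783 for knockout and 12950 for wild-type cells. For single genes they were 8699 and 7942, since fewer probe sets were tested. They were 10606 to 13731 and 9899 to 13658 without 1 array. Knockout minus wild-type calls at 48 h were 7, but 0 with the compared groups alone, 2 without the trend and 3 with median centring. They were 1 to 13 without 1 array: 4, 3 and 13 without TG2 knockout replicate 1, 2 or 3, and 7, 2 and 1 without wild-type replicate 1, 2 or 3; the cause was not tested. Replicate numbers were not taken to pair the arrays, though knockout and wild-type arrays numbered 1 or 2 were more alike at 48 h than unlike numbers. With the replicate block the calls were 14125 for knockout, 13242 for wild-type cells and 5 between genotypes. TGM2 stayed called with the block, and MRPL49, IGF2BP2 and CA2 did not.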

Other observations

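Replication-dependent histones, which carry the chromatin made in S phase, were read from 18 genes. Near lay below far in 3 and above far in 0, where near lay below far in 7.58% of all single-gene probe sets and in 2.88% of the ninth decile of level, which holds the list's median of 9.63. H2AC17, 1 of the 3, was dimmer, with 6.48 to 7.01 untreated and a gap of -0.04 log2. In the sixth and seventh deciles near lay below far in 12.3% and 9.14%. H4C2 read 9.94, 9.95 and 9.91 in near arrays and 10.50, 10.20 and 10.21 in far arrays, against 9.41 to 9.58 untreated. H4C4 read 8.35, 8.05 and 8.62 in near arrays and 11.25, 8.89 and 8.34 in far arrays, against 10.21 to 10.47 untreated, so that TG2 knockout replicate 2 alone lay above the untreated range. Histone genes have near-identical copies, so these values are uncertain as values of single genes.

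ITGA4, the alpha chain of the integrin VLA-4, lay above untreated in every 48 h array and highest in the near ones, with 10.88, 10.76 and 10.91 in near arrays and 10.19, 10.43 and 10.29 in far arrays, against 9.65 to 9.82 untreated. PFKFB3, which makes the activator of glycolytic phosphofructokinase, read 7.69, 8.08 and 8.29 in near arrays and 8.48, 8.68 and 8.49 in far arrays, against 7.65 to 7.83 untreated. Both genes were picked after their values were seen.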
